A study of Mus musculus with 12 samples.

Results

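Major histocompatibility complex (MHC) and antigen presentation genes were followed in cells that had been sorted as endothelial cells from mouse bone marrow. The members were taken from the count table by symbol, as protein-coding genes whose symbol starts with *H2-* (the mouse MHC) together with *Cd74*, *Ciita*, *Nlrc5*, *B2m*, *Tap1*, *Tap2*, *Tapbp*, *Psmb8*, *Psmb9*, *Psmb10* and *Erap1*. This gave 45 of the 55421 genes in the table, 39 of them on chromosome 17. Each of 12 mice aged 20 weeks gave 1 library, 3 mice in each of 4 groups. Naive controls, mice made hypertensive by chronic angiotensin II infusion and mice at day 2 after acute myocardial infarction (MI, by coronary ligation) were C57BL/6J. The text of the study names a later day for MI than the labels do. The atherosclerosis group carried the germline knockout allele *Apoe*(tm1Unc), which removes apolipoprotein E in every cell, and had been fed a western-type diet, so the genotype and the diet cannot be told apart in its comparisons. The sort kept TER-119− CD41− CD45− CD31hi SCA-1+ cells after lineage depletion. The question put to the members was whether class I and class II genes differed between each disease and controls.

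MHC class I molecules consist of a heavy chain paired with β2-microglobulin (*B2m*) and show peptides from inside the cell to CD8 T cells. Immunoproteasome subunits cut these peptides, the TAP transporter carries them into the endoplasmic reticulum, ERAP1 trims them and tapasin (*Tapbp*) helps to load them. MHC class II molecules are pairs of α and β chains that the invariant chain (*Cd74*) escorts to endosomes, where H2-DM exchanges its fragment for peptides and H2-O restrains H2-DM. Endothelial cells constitutively express class I, whereas class II is mainly expressed by B cells, dendritic cells and macrophages and can be induced in endothelium by interferon γ. NLRC5 is the coactivator of class I genes and CIITA that of class II genes, and both work through a promoter module with X and Y boxes.

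The members divide into 2 classical class I heavy chains, 22 other class I heavy chains, 8 genes of class I supply and loading, 5 genes for class II chains and *Cd74*, 5 for class II peptide loading, 2 regulators and *H2-Ke6*, a steroid dehydrogenase gene that carries the *H2-* symbol but encodes no MHC chain. edgeR's filter on low counts kept 33 members. The other 12 were *H2-M1*, *H2-M5*, *H2-M9*, *H2-M10.1* to *H2-M10.6*, *H2-M11*, *H2-Q1* and *H2-T3*, all class I heavy chains, with at most 8 counts in a library. Of these, 5 had no count in any library.

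Promoters of 6 members are shown because the results below turn on the class I genes among them, with 2 class II promoters beside them for comparison. Each is the 200 bases before the RefSeq start on GRCm38.p6, read 5′ to 3′ on the gene's strand. RefSeq lists 2 starts for *H2-K1*, and the downstream one was used. Capitals mark a Y box core (CCAAT or ATTGG on the other strand), an X box core (AGCAAC), an X2 or CRE-like core (TGACGT), an interferon-stimulated response element core (GAAA-NN-GAAA, where N is any base) or a gamma-activated site core (TTCNNNGAA), all searched on both strands. The windows lie at chr17:35424650-35424849 (plus strand), chr17:35438955-35439154 (plus), chr17:34000334-34000533 (minus), chr2:122147487-122147686 (plus), chr17:34287824-34288023 (minus) and chr17:34305667-34305866 (plus).
H2-Q6 promoter: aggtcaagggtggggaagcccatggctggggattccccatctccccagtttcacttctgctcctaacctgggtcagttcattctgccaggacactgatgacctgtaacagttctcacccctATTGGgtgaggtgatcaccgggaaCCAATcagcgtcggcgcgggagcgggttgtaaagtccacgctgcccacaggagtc
H2-Q7 promoter: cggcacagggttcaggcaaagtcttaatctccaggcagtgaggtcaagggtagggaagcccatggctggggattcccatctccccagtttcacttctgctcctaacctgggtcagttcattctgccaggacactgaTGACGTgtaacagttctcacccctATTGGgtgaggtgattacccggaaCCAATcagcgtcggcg
H2-K1 promoter: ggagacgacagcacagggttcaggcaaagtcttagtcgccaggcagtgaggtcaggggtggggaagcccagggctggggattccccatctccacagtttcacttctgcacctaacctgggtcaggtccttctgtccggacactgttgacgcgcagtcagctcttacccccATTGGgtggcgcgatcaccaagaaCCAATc
B2m promoter: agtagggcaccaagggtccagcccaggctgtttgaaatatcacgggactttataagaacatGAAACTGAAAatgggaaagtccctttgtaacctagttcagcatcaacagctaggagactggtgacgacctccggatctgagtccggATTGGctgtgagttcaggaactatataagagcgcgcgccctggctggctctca
H2-Aa promoter: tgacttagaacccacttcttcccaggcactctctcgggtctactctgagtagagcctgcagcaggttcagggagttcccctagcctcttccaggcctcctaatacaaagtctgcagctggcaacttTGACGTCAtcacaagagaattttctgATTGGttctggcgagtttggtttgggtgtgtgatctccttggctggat
H2-Eb1 promoter: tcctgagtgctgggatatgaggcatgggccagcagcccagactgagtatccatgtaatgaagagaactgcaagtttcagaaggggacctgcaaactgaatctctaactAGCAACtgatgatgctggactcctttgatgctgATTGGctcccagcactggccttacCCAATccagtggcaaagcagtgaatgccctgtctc

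The *H2-Q6* and *H2-Q7* windows align over 161 columns with 156 identical bases (96.9%), and *H2-Q6* and *H2-K1* over 152 columns with 130 identical bases (85.5%). *H2-Q7* carries a TGACGT core that *H2-Q6* lacks, and *B2m* is the one with an interferon-stimulated core among the 6 shown. *H2-Aa* has a palindrome that gives the X2 core on both strands, and *H2-Eb1* has the X box core. RefSeq promoters of 300 bases (250 before and 50 after the start) matched 38 of the 45 members by symbol. A Y box core was found in 31 of these 38, in 19 of 22 class I heavy chains and 7 of 8 class II genes, against 37.4% of all 32851 promoters. The X box core was found in 4 of 8 class II and 2 of 22 class I promoters (14.8% of all promoters), and the X2 core in 7 of 22 class I and 1 of 8 class II promoters (7.51%). Interferon-stimulated cores were found in *B2m*, *Erap1*, *H2-T22* and *H2-T23* (3.44% of all promoters). The gamma-activated core was found in 4 members (8.30% of all promoters). A match is a description of the letters and no evidence of binding.

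The libraries held 17007088 to 25136936 counts on genes, and 3 counts, the smallest amount taken as measured here, correspond to between 0.116 and 0.176 CPM, the counts of a gene relative to all counts of its library after TMM scaling. *Apoe*, the targeted gene, was at 7.28 to 14.8 CPM in the knockout libraries and at 450.5 to 1503 CPM in the other libraries. The labelled cell type was checked with marker lists. The 12 endothelial genes, *Cdh5*, *Pecam1*, *Kdr* and *Emcn* among them, were all detected and summed to 120.2 to 250.5 CPM per library. Markers of cells that express class II were present as well, with summed levels of 204 to 1207 CPM for B cells, 67.4 to 228 CPM for conventional dendritic cells and 795 to 1366 CPM for macrophages, and 33214 to 88118 CPM for neutrophils. The neutrophil sum exceeded the endothelial sum in each of the 12 libraries although CD45+ cells had been gated out, so the levels given are those of the sorted cells as a whole. In bulk libraries, fewer cells of a type and less RNA per cell cannot be told apart. Atherosclerosis replicate 2 and MI replicate 2 had the lowest correlation with the other libraries (median Pearson's r across genes 0.960 and 0.970). Hypertension replicate 4 (0.973) was close to the remaining 9 (0.974 to 0.984) by this measure, and stood apart with atherosclerosis replicate 2 by the ratios between members given below. These 2 libraries had the highest B cell marker sums (923 and 1207 CPM) and MI replicate 2 had the lowest (204 CPM).

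Levels per kilobase (kb) used the union of all annotated exons of a gene as its length. By this measure, *H2-D1* (ENSMUSG00000073411, chr17:35262730-35267499) was the highest member with a mean of 1072 CPM per kb over the 12 libraries. *Cd74* followed at 1050.1 and *B2m* at 877 CPM per kb. The next were *H2-Ab1* (202), *H2-K1* (179), *H2-Aa* (84.3), *Tapbp* (75.9), *Psmb8* (72.6), *Psmb10* (53.4), *H2-Eb1* (48.4) and *H2-T23* (44.6). This order depends on the annotated exons as well as on the counts. All members together took 0.620% to 1.083% of the counts of a library. Summed over the class I heavy chains, the level was 1413 ± 133 CPM per kb in controls, 1138 ± 235 in hypertension, 1483 ± 512 in atherosclerosis and 1382 ± 357 after MI (SD, n = 3 each). Without hypertension replicate 4, atherosclerosis replicate 2 and MI replicate 2, it was 1273 ± 24.0, 1776 ± 101 and 1178 ± 67.4 CPM per kb in these groups (SD, n = 2 each). For the class II chains without *Cd74*, it was 339 ± 25.3 CPM per kb in controls, 372 ± 18.3 in hypertension, 359 ± 38.7 in atherosclerosis and 269 ± 49.5 after MI (SD, n = 3 each), and without the same 3 libraries 379 ± 17.4, 364 ± 53.6 and 295 ± 24.2 (SD, n = 2 each). The 3 libraries left out were chosen after the values were seen. Each held the lowest or highest class I sum of its group, at 868, 898 and 1791 CPM per kb. The smaller class I spread without them follows from that choice. Class I exceeded class II in each of the 12 libraries.

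The ratio of class II to class I chains in a library, which does not depend on the scaling, was 0.220, 0.229 and 0.275 in controls, 0.284, 0.312 and 0.410 in hypertension, 0.390, 0.176 and 0.236 in atherosclerosis and 0.120, 0.227 and 0.277 after MI. All 3 hypertension libraries lay above the controls, the nearest by a narrow margin, and the other groups overlapped with controls. With *Cd74* and *B2m* added to the sums, this separation was lost, as hypertension replicate 4 fell below control replicate 4. Neutrophil markers (8 genes, all detected) were lower in the hypertension libraries, at 35889 to 52266 CPM, than in controls, at 57038 to 75772 CPM, without overlap, and their part in the ratio was not tested. The means were 0.241 ± 0.029 in controls, 0.335 ± 0.066 in hypertension, 0.267 ± 0.110 in atherosclerosis and 0.208 ± 0.080 after MI (SD, n = 3 each). Without hypertension replicate 4 and atherosclerosis replicate 2, the means of these groups were 0.298 ± 0.019 and 0.206 ± 0.042 (SD, n = 2). Both libraries were chosen after the values were seen and held the highest ratio of their group. The ratio is a sum over chosen genes and was not tested.

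**Figure D1:**
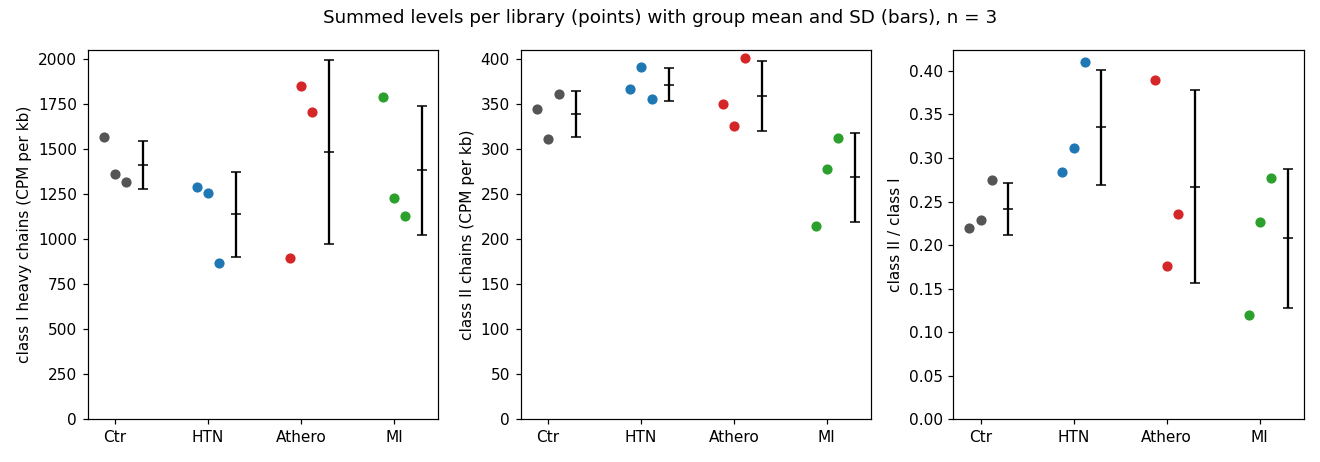
Summed level of class I heavy chains and of class II chains (CPM per kb, linear axes from 0) and their ratio in each of the 12 libraries (points), with the group mean and SD (bars, n = 3). The class I sum spans 898 to 1848 CPM per kb within atherosclerosis, and the 3 MI libraries hold the class II sums of 215, 278 and 313 CPM per kb.

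The classical heavy chains, which present peptides to CD8 T cells, did not keep a fixed proportion to each other. *H2-D1* was at 3347, 2865 and 2784 CPM in controls, 2644, 2575 and 1439 in hypertension, 1216, 3912 and 3579.5 in atherosclerosis and 3999, 2551 and 2264 after MI, in the order of the replicate numbers 2, 3 and 4. *H2-K1* (ENSMUSG00000061232, chr17:33996017-34000347) was at 483, 438 and 407 CPM in controls, 474, 478 and 634 in hypertension, 914, 597 and 548 in atherosclerosis and 452, 416 and 458 after MI. Hypertension replicate 4 and atherosclerosis replicate 2 had the lowest *H2-D1* levels of all libraries and the highest *H2-K1* levels. In raw counts of the same library, where scaling cancels, the ratio of *H2-D1* to *H2-K1* was 6.93, 6.54 and 6.83 in controls, 5.57, 5.39 and 2.27 in hypertension, 1.33, 6.55 and 6.54 in atherosclerosis and 8.85, 6.14 and 4.94 after MI. *H2-D1* accordingly made up 64.3% and 52.5% of the class I sum per kb in those 2 libraries and 77.7% to 86.6% in the other 10.

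Class II genes split in the same libraries. *Cd74* was at 2081, 1879 and 1864 CPM in controls, 1983, 1979 and 1092 in hypertension, 930.5, 2330.5 and 2658 in atherosclerosis and 1216, 1577 and 1567 after MI. *H2-Ab1*, the β chain of I-A, was at 495, 470.3 and 531 CPM in controls, 575, 627 and 659 in hypertension, 669, 478 and 528 in atherosclerosis and 261, 431 and 491 after MI. *H2-Aa*, its partner α chain, was at 373, 321 and 362 CPM in controls, 353, 354 and 228 in hypertension, 209, 356 and 418 in atherosclerosis and 281, 273 and 315 after MI. In hypertension replicate 4 and atherosclerosis replicate 2, *Cd74* and *H2-Aa* were lower than in the other libraries of their groups, while *H2-Ab1* was the highest of all 12. The raw count ratio of *H2-Ab1* to *H2-Aa* was 1.32, 1.47 and 1.47 in controls, 1.63, 1.77 and 2.89 in hypertension, 3.20, 1.34 and 1.26 in atherosclerosis and 0.929, 1.58 and 1.56 after MI. *Cd74* to *H2-Ab1* was 1.66 and 1.39 in the 2 libraries that stood apart and 3.16 to 5.03 in the others. None of the 50-base windows of *H2-Ab1*, *Cd74* and *B2m* transcripts occurs in a transcript of another gene, and 12.8% of those of *H2-D1* and 9.63% of those of *H2-K1* do. Since the reads were single-end and counted only where they mapped to 1 place, reads from shared windows were not counted on either gene.

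**Figure D2:**
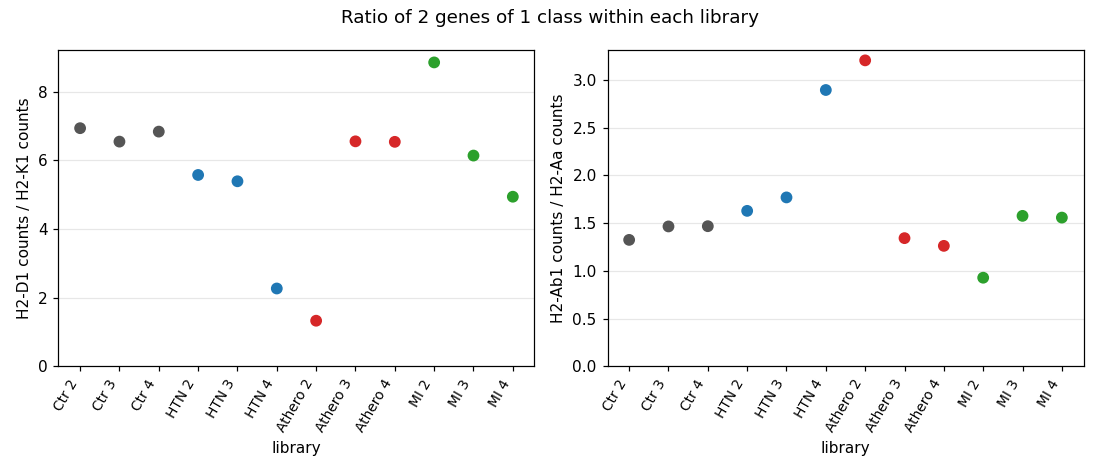
Ratio of raw counts of *H2-D1* to *H2-K1* (left) and of *H2-Ab1* to *H2-Aa* (right) in each of the 12 libraries, on linear axes from 0 and coloured by group. Hypertension replicate 4 and atherosclerosis replicate 2 have the lowest ratios on the left (2.27 and 1.33) and the highest on the right (2.89 and 3.20).

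The other class I heavy chains were lower per kb. *H2-T23*, which encodes Qa-1, a ligand of inhibitory receptors on natural killer cells, was at 123, 120.3 and 120.1 CPM in controls, 127, 119 and 122 in hypertension, 132, 155 and 168 in atherosclerosis and 109, 122 and 129.8 after MI. *H2-M3*, which presents formylated peptides, was at 23.5, 26 and 23 CPM in controls, 24.7, 22.2 and 19.8 in hypertension, 23.8, 31.0 and 27.1 in atherosclerosis and 22.9, 24.6 and 21.0 after MI. *H2-T24* was at 23.4, 29.0 and 24.7 CPM in controls, 27.7, 20.9 and 20.7 in hypertension, 31.6, 34.4 and 32.3 in atherosclerosis and 12, 27.3 and 21.3 after MI. The 3 atherosclerosis libraries lay above the 3 controls for *H2-T23* and *H2-T24*, and *H2-M3* overlapped between all groups. MI replicate 2 had the lowest *H2-T24* level of the 12 libraries. *H2-T22*, a ligand of γδ T cells, ranged from 20.9 to 30.8 CPM, and *H2-Q10*, which encodes a secreted molecule best known from liver, from 22.8 to 38.8 CPM. *H2-Q4* ranged from 1.30 to 3.64 CPM, *H2-Q2* from 0.10 to 0.940 CPM and *H2-M2* from 0 to 0.863 CPM. Of the 50-base windows of *H2-T22*, 53.5% occur in another gene, mostly *H2-T10*, so its level is uncertain.

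Among the genes of class I supply and loading, *B2m* (ENSMUSG00000060802, chr2:122147686-122153083) was at 833, 613 and 636 CPM in controls, 665, 665 and 622 in hypertension, 1138, 959.5 and 904 in atherosclerosis and 775, 624 and 612 after MI. *Tapbp* was at 244, 311 and 295 CPM in controls, 293, 292 and 259 in hypertension, 318, 265 and 315 in atherosclerosis and 204, 277 and 232 after MI. *Psmb8*, a catalytic subunit of the immunoproteasome, was at 265, 249.6 and 215 CPM in controls, 247, 248 and 216 in hypertension, 263, 256 and 217 in atherosclerosis and 249, 262 and 259 after MI. All 3 atherosclerosis libraries exceeded every other library for *B2m*, whereas the groups overlapped for *Psmb8*. The transporter genes *Tap1* and *Tap2* ranged from 70.4 to 106 and from 48.0 to 86.6 CPM, the proteasome genes *Psmb9* and *Psmb10* from 58.9 to 93.7 and from 79.8 to 110.1 CPM, and *Erap1* from 24.7 to 30.4 CPM.

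H2-DM and H2-O act on class II molecules in endosomes. *H2-DMa* was at 122, 136 and 117 CPM in controls, 128, 125 and 117 in hypertension, 98.5, 118 and 103 in atherosclerosis and 129, 119 and 130.0 after MI. *H2-DMb1* was at 48.3, 56.4 and 58.8 CPM in controls, 58.4, 60.6 and 58.9 in hypertension, 60.6, 48.5 and 52.7 in atherosclerosis and 51.6, 54.1 and 60.6 after MI. *H2-DMb2* was at 14.2, 20.8 and 17.9 CPM in controls, 15.1, 20.1 and 19.9 in hypertension, 15.0, 9.51 and 15.2 in atherosclerosis and 13, 17.8 and 17.3 after MI. Atherosclerosis replicate 3 had the lowest *H2-DMb2* level, and the DM genes otherwise overlapped between controls and each disease. *H2-DMb1* and *H2-DMb2* share 22.7% and 25.9% of their windows with other genes, mostly with each other. The H2-O genes ranged from 2.60 to 7.49 CPM for *H2-Oa* and from 9.44 to 23.5 CPM for *H2-Ob*. *H2-Eb1*, the β chain of I-E, ranged from 67.1 to 166 CPM and its relative *H2-Eb2* from 0.224 to 0.815 CPM.

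The regulators were low, at means of 1.26 CPM per kb for *Nlrc5* and 1.36 for *Ciita*. *Nlrc5* (ENSMUSG00000074151, chr8:94434356-94527272) was at 10.7, 9.10 and 7.64 CPM in controls, 11.3, 9.68 and 10.9 in hypertension, 15.3, 13 and 15.5 in atherosclerosis and 6.85, 9.21 and 9.04 after MI. *Ciita* (ENSMUSG00000022504, chr16:10480059-10528418) was at 13.3, 14.0 and 14.4 CPM in controls, 12.3, 14.2 and 14.0 in hypertension, 13.6, 10.6 and 19.4 in atherosclerosis and 7.34, 11.1 and 11.6 after MI. All 3 atherosclerosis libraries exceeded every other library for *Nlrc5*, and *Ciita* was below the lowest control in each MI library. *H2-Ke6* was at 2.30, 1.73 and 2.21 CPM in controls, 2.00, 1.14 and 0.951 in hypertension, 0.712, 2.29 and 2.85 in atherosclerosis and 1.60, 1.91 and 2.37 after MI, overlapped between the groups and shares 70.5% of its windows with *Gm20427*, so its values are uncertain.

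**Figure D3:**
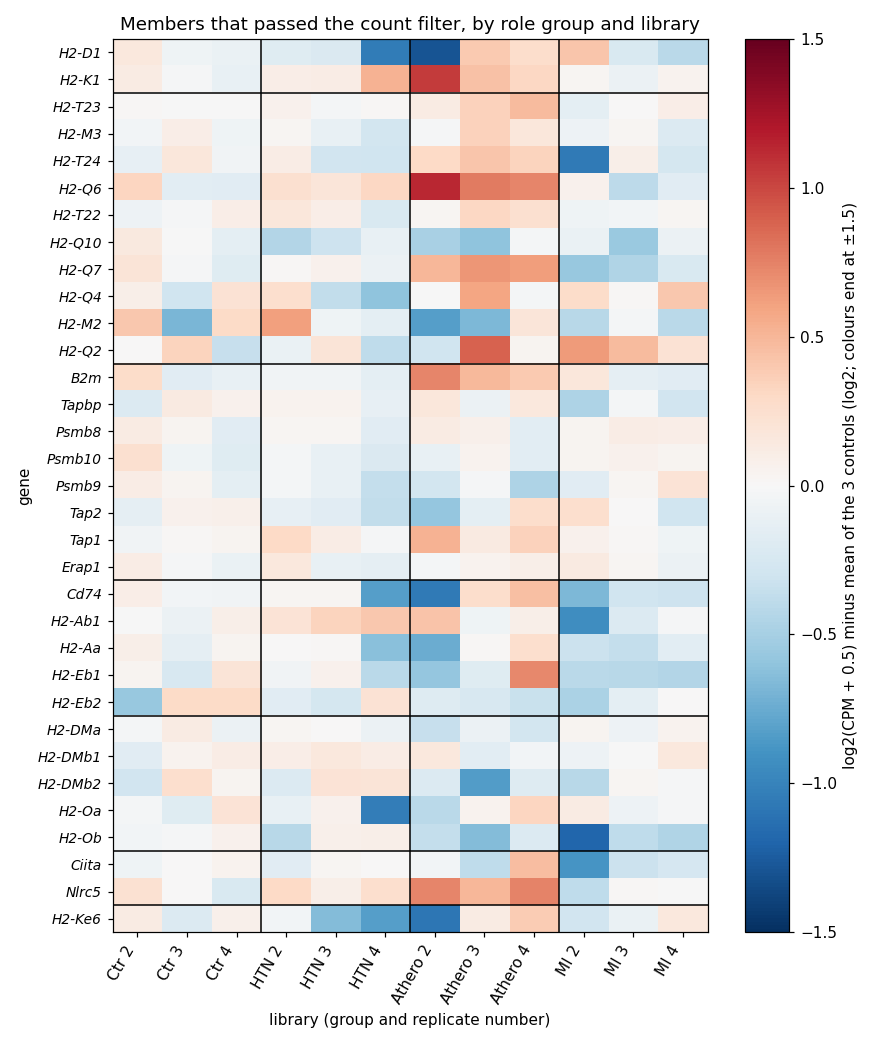
log2(CPM + 0.5) minus the mean of the 3 controls for the 33 members that passed the filter on low counts (rows, by role group and then by level per kb) in the 12 libraries (columns, with Athero for atherosclerosis and HTN for hypertension). *H2-Q6*, *H2-Q7*, *B2m* and *Nlrc5* are above the control mean in each atherosclerosis library, and *H2-D1*, *Cd74* and *H2-Aa* are below it in hypertension replicate 4 and atherosclerosis replicate 2.

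In atherosclerosis, several class I genes were higher in every library than in any control, but none passed the test against controls. *H2-Q6* (ENSMUSG00000073409, chr17:35424850-35430055), of the Qa-2 family of nonclassical class I molecules, was at 22, 15.7 and 15.6 CPM in controls, 20.9, 20.0 and 21.8 in hypertension, 38.8, 30.5 and 29.5 in atherosclerosis and 18.3, 13.3 and 15.5 after MI. *H2-Q7* (ENSMUSG00000060550, chr17:35439155-35443773), of the same family, was at 18.1, 15.5 and 13.8 CPM in controls, 15.8, 16.5 and 14.7 in hypertension, 22.4, 25.0 and 24.4 in atherosclerosis and 10.4, 11.4 and 13.3 after MI. For both genes, the atherosclerosis libraries exceeded every other library, and for *H2-Q7* the MI libraries lay below the controls. Group means of *H2-Q6* were 17.8 ± 3.70 CPM in controls and 32.9 ± 5.11 CPM in atherosclerosis (SD, n = 3), and those of *H2-Q7* were 15.8 ± 2.15 CPM and 23.9 ± 1.39 CPM. The log2 fold change against controls was 0.89 (SE 0.18, adjusted p = 0.117) for *H2-Q6* in edgeR's quasi-likelihood fit, with p adjusted for the 15999 genes tested by the Benjamini-Hochberg procedure. It was 0.60 (SE 0.16, adjusted p = 0.324) for *H2-Q7*, 0.63 (SE 0.20, adjusted p = 0.566) for *H2-K1*, 0.53 (SE 0.17, adjusted p = 0.621) for *B2m* and 0.68 (SE 0.19, adjusted p = 0.397) for *Nlrc5*.

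In this comparison, 0 members were called at an adjusted p under 0.05, against 0.144% of all genes tested, and the likelihood-ratio test and DESeq2 each called 1, *H2-Q6*, where they called 0.506% and 0.507% of all genes. Without the filter on low counts, *H2-Q6* was also called, with 1.20% of all genes. At an unadjusted p under 0.05, 7 members lay above controls (*H2-Q6*, *H2-Q7*, *Nlrc5*, *H2-K1*, *B2m*, *Tap1* and *H2-T23*) and 0 below, where 3.97% of all genes tested lay above and 2.00% below. The atherosclerosis and control libraries did not overlap for 8 members that were higher, these and *H2-T24* (5.06% of all genes tested), and for 1 that was lower, *H2-Ob* (4.45%). Of the 12 class I heavy chains that passed the filter, 9 had a log2 fold change above 0 and the median was 0.28, against 51.9% of all genes above 0 and a median of 0.01 over all genes. The 8 supply and loading genes had a median of 0.03, with *Tap1* at 0.34 and *Psmb9* at -0.25.

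On the class II side in atherosclerosis, 4 of 10 genes lay above 0 with a median of -0.06. The smallest p among the chains was that of *H2-Eb2* at -0.62 (SE 0.50, adjusted p = 0.902), and among the loading genes that of *H2-DMb2* at -0.41 (SE 0.22, adjusted p = 0.860). *H2-D1* and *Cd74*, named after their values were seen, had log2 fold changes of -0.05 (SE 0.38, adjusted p = 0.991) and 0.02 (SE 0.33, adjusted p = 0.996), and *H2-Ke6* of -0.10 (SE 0.44, adjusted p = 0.983). Without the 2 libraries that stood apart, a choice made after the values were seen, *H2-D1* was at 0.33, *H2-K1* at 0.38 and *H2-Q6* at 0.77 on the log2 scale. With the macrophage sum as a covariate, *H2-D1* was at -1.01 (adjusted p = 0.521). *Ciita* was at 0.06.

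The summed level of macrophage markers was also higher in atherosclerosis than in controls. Over the 11 genes, all detected, it was 869 to 1236 CPM in hypertension. In atherosclerosis it was 1237 to 1366 CPM against 867 to 994 CPM in controls, without overlap. Plasma cell markers (6 genes, all detected) were at 1004 to 1346 CPM against 531 to 869 CPM, also without overlap, and B cell markers were at 496 to 1207 CPM against 505 to 690 CPM. With the macrophage sum as a covariate, *H2-Q6* had a log2 fold change of 1.13 and *H2-K1* of 1.11 (adjusted p = 0.251 each), and with the B cell sum 0.87 and 0.54 (adjusted p = 0.0854 and 0.306). Of the 50-base windows of *H2-Q6*, 35.0% occur in other genes, most often in *H2-Q7*, and of those of *H2-Q7* 26.5%, most often in *H2-Q10*. Counts of these paralogs rest on the remaining windows. Because the macrophage sums of the 2 groups did not overlap, the fit with that sum hardly separates it from the group. That fit called 0.00625% of all genes, against 0.144% without a covariate. The part of other cell types in the result was not tested.

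**Figure D4:**
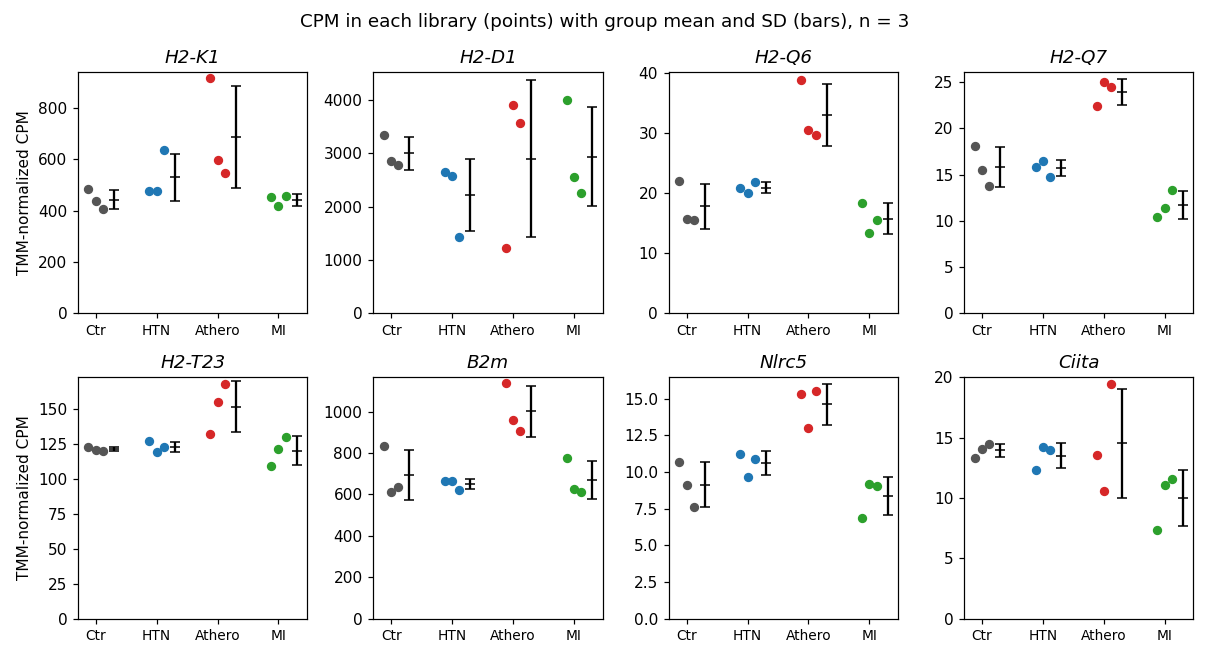
TMM-normalized CPM of 6 class I genes and the 2 regulators in each library (points, linear axes from 0), with the group mean and SD (bars, n = 3). The atherosclerosis points of *H2-Q6* (29.5 to 38.8), *H2-Q7* (22.4 to 25.0), *B2m* (904 to 1138) and *Nlrc5* (13 to 15.5) are above every other point, while those of *H2-D1* lie between 1216 and 3912.

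*Cd74*, *H2-Aa*, *H2-Eb1*, *H2-Ob* and *Ciita* were lower in every MI library than in any control, again without a member that passed the test. *H2-Ab1* and *H2-Eb2* overlapped with controls. *H2-Eb1* was at 104, 85.2 and 115 CPM in controls, 97.1, 105 and 76.0 in hypertension, 67.1, 88.7 and 166 in atherosclerosis and 76.1, 75.2 and 74.0 after MI. *H2-Ob*, a subunit of the H2-DM inhibitor, was at 21.6, 21.9 and 23.2 CPM in controls, 16.5, 23.5 and 23.5 in hypertension, 17.2, 13.9 and 19.2 in atherosclerosis and 9.44, 17 and 16.0 after MI. The MI libraries lay below the controls for both, and MI replicate 2 had the lowest *H2-Ob* and *Ciita* levels of all libraries. Against controls, the log2 fold change was -0.65 (SE 0.22, adjusted p = 1.00) for *H2-Ob*, -0.48 (SE 0.23, adjusted p = 1.00) for *Ciita* and -0.43 (SE 0.27, adjusted p = 1.00) for *H2-Eb1*. Among the class I genes with the smallest p of their role group, it was -0.43 (SE 0.16, adjusted p = 1.00) for *H2-Q7*, -0.25 (SE 0.16, adjusted p = 1.00) for *Tapbp* and -0.03 (SE 0.38, adjusted p = 1.00) for *H2-D1*. *H2-Ke6* was at -0.09 (SE 0.44, adjusted p = 1.00).

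After MI, edgeR's quasi-likelihood test, the likelihood-ratio test and DESeq2 each called 0 members against controls, where they called 0%, 0.00625% and 0.00626% of all genes. At an unadjusted p under 0.05, 2 members lay below controls (*H2-Ob* and *H2-Q7*) and 0 above, where 1.57% of all genes tested lay below and 1.23% above. Libraries did not overlap for 6 members that were lower (*Cd74*, *Ciita*, *H2-Aa*, *H2-Eb1*, *H2-Ob* and *H2-Q7*, 4.59% of all genes tested) and for 0 that were higher (4.27%). The 5 genes for class II chains and *Cd74* all lay below 0, with a median of -0.42 and a range from -0.49 for *H2-Eb2* to -0.28 for *H2-Aa*, against a median of 0.00 over all genes. Of the 12 class I heavy chains, 2 lay above and 10 below 0, with a median of -0.06, where 50% of all genes lay above 0. The supply and loading genes had a median of 0.01 and the class II loading genes of 0.00.

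B cell markers (9 genes, all detected) were lower in the same libraries, at 204 to 482 CPM after MI and 505 to 690 CPM in controls without overlap. Conventional dendritic cell markers were at 67.4 to 141 CPM after MI and 114 to 228 CPM in controls. With the B cell sum as a covariate, the log2 fold changes were -0.44 for *H2-Ob*, -0.38 for *Ciita* and -0.78 for *H2-Eb1* (adjusted p = 0.485, 0.580 and 0.349), and *H2-D1* was at -0.87 (adjusted p = 0.313). Without MI replicate 2, *H2-Ob* was at -0.43, *Ciita* at -0.30 and *H2-Eb1* at -0.44 on the log2 scale. Because the B cell sums of MI and controls did not overlap, the fit with that sum hardly separates it from the group. The part of B cells and dendritic cells in the result was not tested.

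No member passed the test in hypertension. The smallest p on the class I side was that of *H2-Q10* with a log2 fold change of -0.29 (SE 0.19, adjusted p = 0.951), followed in their role groups by *H2-K1* at 0.26 (SE 0.20, adjusted p = 0.951) and *Tap2* at -0.22 (SE 0.20, adjusted p = 0.951). On the class II side it was that of *H2-Ab1* at 0.31 (SE 0.21, adjusted p = 0.951), with *H2-Oa* at -0.32 (SE 0.30, adjusted p = 0.951) among the loading genes. *Nlrc5* was at 0.22 (SE 0.19, adjusted p = 0.951) and *H2-Ke6* at -0.61 (SE 0.44, adjusted p = 0.951). All 3 tests called 0 members and 0% of all genes, and 0 members had an unadjusted p under 0.05 in the quasi-likelihood test (3.71% of all genes tested). Libraries did not overlap for *H2-Ab1*, which was higher (9.02% of all genes tested), and *H2-D1*, which was lower (7.81%). *H2-D1* was at a log2 fold change of -0.43 there (adjusted p = 0.951) with the lowest value in replicate 4, and of -0.20 without replicate 4. Without that library, *H2-K1* was at 0.11, *Tap2* at -0.15 and *H2-Oa* at -0.03. Neutrophil markers, given above, were lower in hypertension without overlap, and their part in these values was not tested. Of the 33 members, 10 lay above 0, against 48.1% of all genes. Medians were -0.06 for the 12 class I heavy chains and -0.10 for the 10 genes on the class II side, against -0.01 over all genes.

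**Figure D5:**
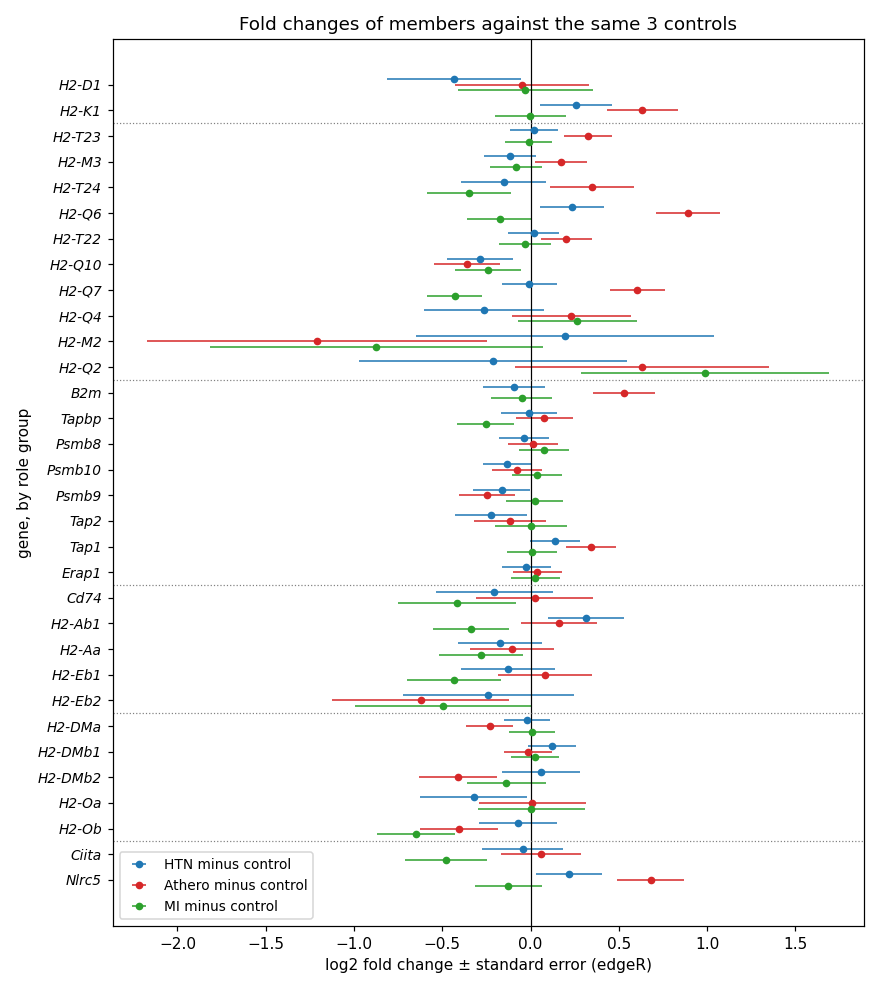
log2 fold change ± SE (edgeR quasi-likelihood fit) of 32 members against the same 3 controls in hypertension (HTN), atherosclerosis (Athero) and MI, ordered by role group with dotted lines between groups. *H2-Q6*, *Nlrc5*, *H2-K1* and *H2-Q7* in atherosclerosis lie furthest to the right among members with an SE under 0.3, and the class II chains and *Cd74* after MI all lie left of 0.

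The direct comparison of atherosclerosis with MI held the members that passed the test. *H2-Q7* was higher in atherosclerosis by a log2 fold change of 1.03 (SE 0.16, adjusted p = 0.0181) and *H2-Q6* by 1.07 (SE 0.18, adjusted p = 0.0344), from the values given above, in which the groups do not overlap. These 2 members were called, against 0.269% of all genes tested (0.200% in the higher direction). *Nlrc5* was at 0.81 (SE 0.19, adjusted p = 0.0976), *B2m* at 0.58 (SE 0.17, adjusted p = 0.210) and *H2-K1* at 0.63 (SE 0.20, adjusted p = 0.235). At an unadjusted p under 0.05, 10 members were higher and 0 lower (7.36% and 5.34% of all genes tested). Libraries did not overlap for 9 members that were higher, 6 of them class I heavy chains (7.44% of all genes tested), and for 1 that was lower, *H2-DMa* (6.23%). Of the 33 members, 19 lay above 0, against 52.3% of all genes. The median was 0.25 for the 12 class I heavy chains and 0.44 for the 5 class II chains and *Cd74*, of which *H2-Ab1* was at 0.50, against 0.02 over all genes.

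Both calls depended on the libraries and on the fit. The adjusted p ranged from 0.0144 to 0.0841 for *H2-Q7* and from 0.0290 to 0.126 for *H2-Q6* when 1 library was left out, with a log2 fold change of 0.95 to 1.14 and of 0.94 to 1.19. Neither was called without atherosclerosis replicate 4, without any of the MI replicates or in a fit of the 2 groups alone (adjusted p = 0.249 each). Of all genes, 0.0486% to 0.109% were called without 1 of these libraries and 0.0197% in the fit of the 2 groups. *H2-Q6* was also not called without control replicate 3 or 4, any hypertension replicate or atherosclerosis replicate 3. DESeq2 called 4 members (these, *B2m* and *Nlrc5*), where it called 2.16% of all genes. The macrophage sum was 795 to 941 CPM after MI and 1237 to 1366 CPM in atherosclerosis, without overlap. The B cell sum was 204 to 482 CPM and 496 to 1207 CPM, also without overlap. *Adgre1*, from the macrophage list, overlapped, at 46.6 to 60.2 CPM after MI and 44.8 to 103 CPM in atherosclerosis. Neither gene was called with a marker sum as a covariate. Because the macrophage and B cell sums of the 2 groups did not overlap, the fits with those sums hardly separate them from the group. Of all genes, 0.0188% were called with the macrophage sum, 0.188% with the B cell sum and 0.169% with the plasmacytoid dendritic cell sum, against 0.269% without a covariate. With the macrophage sum, the log2 fold changes were 1.18 for *H2-Q7* and 1.34 for *H2-Q6* (adjusted p = 0.172 and 0.170). With the B cell sum they were 0.99 and 0.95 (adjusted p = 0.0569 and 0.0998), and with the plasmacytoid dendritic cell sum 1.01 and 1.16 (adjusted p = 0.0519 and 0.0760).

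Between atherosclerosis and hypertension, the quasi-likelihood test, the likelihood-ratio test and DESeq2 each called 0 members (0.0625%, 0.438% and 0.476% of all genes). At an unadjusted p under 0.05, 5 members were higher in atherosclerosis (*H2-Q7*, *H2-Q6*, *B2m*, *Nlrc5* and *H2-T23*) and 0 lower (3.86% and 2.08% of all genes tested). Libraries did not overlap for 6 members that were higher, those and *H2-T24* (5.81% of all genes tested), and for 0 that were lower (5.08%). The log2 fold change was 0.61 (SE 0.16, adjusted p = 0.337) for *H2-Q7* and 0.62 (SE 0.17, adjusted p = 0.437) for *B2m*. Between MI and hypertension, all 3 tests called 0 members (0%, 0.0125% and 0.175% of all genes in that order). At an unadjusted p under 0.05 in the quasi-likelihood test, 4 were lower after MI (*H2-Ab1*, *H2-Q7*, *H2-Ob* and *H2-Q6*, 4.23% of all genes tested) and 0 higher (4.18%). *H2-Ab1* had a log2 fold change of -0.65 (SE 0.22, adjusted p = 0.530). Libraries did not overlap for 6 members that were lower after MI (*Ciita*, *H2-Ab1*, *H2-K1*, *H2-Q6*, *H2-Q7* and *Nlrc5*, 10.2% of all genes tested) and for 3 that were higher (*H2-Q2*, *Psmb8* and *Psmb10*, 9.34%).

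A list of 36 further genes of antigen processing and presentation, chaperones, cathepsins, interferon signalling and costimulation was measured in full. None was called in any of the 6 comparisons by the quasi-likelihood test, which called 0% to 0.269% of all genes. The smallest p against controls was that of *Psme3*, a proteasome activator subunit, in hypertension (316 ± 21.3 CPM in controls and 400 ± 21.6 CPM in hypertension, SD, n = 3, log2 fold change 0.34, adjusted p = 0.951). In atherosclerosis it was that of *Ide*, the insulin-degrading protease (103 ± 5.84 CPM in controls and 54.2 ± 13.9 CPM, log2 fold change -0.93, adjusted p = 0.103). After MI it was that of *Cd1d1*, which presents lipids to natural killer T cells (21.9 ± 0.476 CPM in controls and 17.9 ± 3.42 CPM, log2 fold change -0.29, adjusted p = 1.00). Of the 36 genes, 13 lay above 0 in hypertension, 20 in atherosclerosis and 11 after MI, with medians of -0.08, 0.09 and -0.05. Over all genes tested, 48.1%, 51.9% and 50% lay above 0, with medians of -0.01, 0.01 and 0.00.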

How the data were processed

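Polyadenylated RNA of sorted cells from 12 mice was sequenced as single-end, strand-specific libraries. The authors aligned reads to GRCm38.p6 with STAR 2.7.3a and deposited raw counts per Ensembl gene from its GeneCounts option, which takes reads that map to 1 place and overlap 1 gene. Which strand column was taken is not given in the sources used here. Columns were matched to mice by group and replicate number. Symbols and exon lengths came from GENCODE M21 (55240 of the 55421 genes) and promoters from RefSeq.

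Counts were tested in R 4.3.3 with edgeR 4.0.16 (filterByExpr, TMM, 1 coefficient per group over all 12 libraries, glmQLFTest, two-sided, 8 residual degrees of freedom), with Benjamini-Hochberg adjustment over 15999 genes and a threshold of 0.05. All comparisons with controls share the same 3 mice. Depth was 17007088 to 25136936 counts, and the floor of 3 counts covers counting error only. On simulated counts for atherosclerosis against MI (15729 genes), 36 of 97 genes changed by log2 1 and 81 of 98 changed by log2 2 were called, with 8 unchanged genes.

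By rule, values in every library are given for called members and the 3 of highest CPM per kb in each role group, and fold changes for called members and the smallest p in each role group. Other members given for their order or by library were added after their values were seen. The members, lists and tests were chosen with earlier results of these data known. Alternatives were edgeR's likelihood-ratio test, DESeq2 1.42.0, RLE factors, other filters, immunoglobulin and hemoglobin genes left out, the 2 groups alone, a replicate block, marker covariates, an adjusted p under 0.1 and leaving out libraries.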

Additional observations from a re-analysis of the deposited data

Results flagged for a closer look

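*H2-Q7* and *H2-Q6* differed between atherosclerosis and MI, which share the same controls, in the fit over all 12 libraries. The difference was 1.03 on the log2 scale for *H2-Q7* (edgeR's quasi-likelihood test, Benjamini-Hochberg adjusted p = 0.0181, higher in 3 of 3 atherosclerosis libraries than in each MI library) and 1.07 for *H2-Q6* (adjusted p = 0.0344, likewise in 3 of 3). The call was lost in 9 of 26 alternatives for *H2-Q7* and in 15 of 26 for *H2-Q6*. For both genes these include the 2 groups alone (adjusted p = 0.249 each), each MI replicate or atherosclerosis replicate 4 left out, and B cell, plasmacytoid dendritic cell or macrophage markers as a covariate, while the direction was kept in all 26. Of all genes, 0.269% were called in the fit over all 12 libraries, 0.0197% with the 2 groups alone and 0.0188% to 0.188% with these covariates. The macrophage and B cell sums did not overlap between atherosclerosis and MI, so the fits with them hardly separate the sum from the group. Part of the transcript sequence of both genes occurs in paralogs, 26.5% of the 50-base windows of *H2-Q7* and 35.0% of those of *H2-Q6*. Dixon's ratio for a single outlying value was not computed for groups of 3.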

How the results depend on the processing

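Of 30 fold changes followed through up to 26 alternatives, 23 kept their direction in every one. *H2-Q6* against controls in atherosclerosis was called by the likelihood-ratio test, DESeq2 and without the low-count filter, so members called there were 1, 1 and 1 instead of 0. Members called between atherosclerosis and MI, 2 as reported, were 4 with DESeq2, 0 with the 2 groups alone, 0 with B cell, 0 with plasmacytoid dendritic cell and 0 with macrophage markers as a covariate, 1 without hypertension replicate 4 and atherosclerosis replicate 2 (an alternative chosen after seeing the data), and 0 to 2 with 1 library left out. The shares of all genes called were 0.269% as reported, 2.16% with DESeq2 and 0.0197% with the 2 groups alone. They were 0.188%, 0.169% and 0.0188% with the covariates in that order, 0.506% without the 2 libraries and 0.0486% to 0.569% with 1 left out. In the other comparisons, 0 were called with 1 library left out. Of all genes, 0.0121% to 0.208% were then called for atherosclerosis against controls and 0.0182% to 0.22% for atherosclerosis against hypertension. The shares were 0% to 0.00612% for MI against controls and 0% for hypertension against controls and MI against hypertension. The causes were not tested.

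Signs turned for changes near 0. *H2-D1* in atherosclerosis, -0.05 as reported, was -1.01 with the macrophage covariate, 0.0750 with the plasmacytoid covariate, 0.33 without those 2 libraries, 0.32 also without MI replicate 2, and -0.32 to 0.33 with 1 library left out. *H2-D1* after MI, -0.03 as reported, was -0.87 with the B cell covariate, 0.0552 with the macrophage covariate and -0.32 to 0.13 with 1 left out. *H2-Ke6* in atherosclerosis was -0.997 with the macrophage covariate, 0.315 and 0.304 without 2 and 3 libraries and -0.49 to 0.32 with 1 left out, and after MI 0.0490 with the macrophage covariate, 0.0370 without 3 libraries and -0.25 to 0.0371 with 1 left out. *H2-Q7* in hypertension was 0.00872 without the filter, 0.0301 with the macrophage covariate, 0.0405 and 0.0372 without 2 and 3 libraries and -0.0904 to 0.0999 with 1 left out. *Cd74* in atherosclerosis was -0.0258 with the replicate block, -0.64 with the macrophage covariate and -0.25 to 0.37 with 1 left out. *H2-Q6* after MI was -0.30 to 0.00627 with 1 left out.

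With *Cd74* and *B2m* added, the class II to class I ratio was 0.677 in controls, 0.719 in hypertension, 0.569 in atherosclerosis and 0.550 after MI. With 1 library left out it was 0.225 to 0.252, 0.298 to 0.361, 0.206 to 0.313 and 0.174 to 0.252. Genes called in atherosclerosis against controls over all genes numbered 23 by the quasi-likelihood test and 81 by the likelihood-ratio test. Replicate numbers were not treated as pairing the mice: deviations of same-numbered libraries correlated between -0.28 and 0.30, 5 of 18 pairs over 0.1, and 4 of 12 libraries correlated best with their own number. With the replicate block, 1 member was called between atherosclerosis and MI, where 0.138% of all genes were called. The 3 mice per group and the levels of *H2-M2*, *H2-Q2* and *H2-Eb2*, under 1 CPM, limit what could be called.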

Other observations

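*H2-* genes that the annotation does not class as protein-coding were not members. *H2-Q5*, a polymorphic pseudogene of the Qa-2 region, had a log2 fold change of 1.05 between atherosclerosis and MI (edgeR's quasi-likelihood test, adjusted p = 0.141), with 3.96, 3.76 and 2.60 CPM in atherosclerosis and 1.71, 1.80 and 1.45 CPM after MI. *H2-K2* was at 6.98 to 19.2 CPM and *H2-T10* at 2.44 to 6.00 CPM over the 12 libraries, with adjusted p values of 0.920 and 0.860 for atherosclerosis against controls. *H2-Ea-ps*, the I-E α chain locus, had at most 3 counts in a library, beside *H2-Eb1* at 67.1 to 166 CPM.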
